A study of Mus musculus with 24 samples.

Results

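Bisphenol A (BPA) has been reported to bind a group of ligand-regulated transcription factors, and this account gives the transcript levels of 9 genes for such receptors in Ku70–/– mouse fibroblasts. The 9 genes are Esr1 and Esr2 (the estrogen receptors), Esrra and Esrrg (estrogen-related receptors), Pgr (the progesterone receptor), Thra and Thrb (the thyroid hormone receptors), Pparg (the adipogenic fatty acid receptor) and Ahr (the aryl hydrocarbon receptor). They were chosen by name from the gene names in the scanner output. They are 9 of the 18434 protein-coding genes on the array, read by 17 of its 41174 probes. Ahr is a basic helix-loop-helix PAS protein and is included for its ligand, not for its family.

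Nuclear receptors are transcription factors with a zinc finger DNA-binding domain and a pocket that holds a small lipophilic ligand. Thyroid hormone receptors and PPARG bind DNA as heterodimers with retinoid X receptors, estrogen and progesterone receptors as homodimers. The estrogen-related receptors act without estrogen and drive mitochondrial genes together with PGC-1 coactivators. AHR waits in the cytoplasm with HSP90 and moves with ARNT to its target genes once a ligand binds.

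All 24 arrays carry RNA from immortalized mouse embryonic fibroblasts that lack Ku70 (gene Xrcc6), the DNA end-binding protein of nonhomologous end joining, so the controls carry the deletion too. The first set has 15 arrays, 3 each of untreated cells (labelled 4 hr), cells exposed during 1 hr to 20 mM potassium bromate (KBrO3, an oxidizing agent) and collected at 4 hr, likewise at 24 hr, and co-exposed cells at each of these times, which received 150 μM BPA for 1 hr before the same KBrO3 dose and throughout. The second set has 9 arrays, 3 each of its own untreated cells, for which no time is labelled, and of cells in 150 μM BPA alone, labelled 4 or 24 hr. These times count from the addition of KBrO3 in the other dishes, and by the study's methods BPA alone had been present for 1 hr longer. No control is labelled as taken at 24 hr, so the treatment and the time in culture cannot be told apart in the 24 hr comparisons of the first set. In the second set the same 3 controls, with no time labelled, are the reference for BPA at 4 and at 24 hr. Neither BPA comparison is thus known to have controls of its own time, and the comparison across sets below carries the same limit.

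Of the spots, 57.7% to 68.1% per array were well above background in the first set, as were 76.4% to 79.4% in the second. The median residual SD of tested probes was 0.107 and 0.340 on the log2 scale. With 3 arrays per group, the number of arrays limits every value. The study's methods call the replicates of each condition biological. In the first set only KBrO3 at 4 hr shared a slide with a control array, and for the other 3 treatments slide and treatment cannot be told apart. All 8 fibroblast markers fixed for this work (collagens, vimentin and others) were well above background on every control array, and 7 or 8 were in every group. Of 5 epithelial, 4 endothelial and 5 leukocyte markers, 1 to 4, 1 to 3 and 1 to 3 were well above background on all 3 arrays of a group. Krt14, Tek and Cd68 were so in all 8 groups, and Epcam, Pecam1 and Ptprc in 0 of the 8. The summed levels of these 3 lists lay between 0.0597 and 0.681, and that of the leukocyte list went from 0.153 to 0.197 in the first controls to 0.633 to 0.681 after KBrO3 and 0.483 to 0.487 after co-exposure at 4 hr. The summed fibroblast marker level, relative to each array's 75th percentile, was 1480 to 1590 in the first controls, 1380 to 1470 after KBrO3 and 1020 to 1060 after co-exposure at 4 hr, and 651 to 740 and 439 to 520 at 24 hr. In the second set it was 666 to 774 in the controls, 640 to 764 after BPA at 4 hr and 537 to 631 at 24 hr. The part of these changes in the results below was not tested. Xrcc6 itself was well above background on all 24 arrays, and whether its probe lies in the deleted part is not known. In bulk RNA, fewer cells that express a gene and less RNA per cell cannot be told apart.

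Where several probes read 1 gene, the probe with the highest mean signal, treated arrays included, represents it and the others are given beside it. For Esrrg the treated arrays decided this choice, since its other probe was the brighter one in both control groups. That other probe read −3.37 against −3.80 for the representing one in the first controls, and −1.97 against −3.03 in the second. Counts, medians and rankings of the receptors below use representing probes, so they carry a choice made partly on the outcome. The clearest receptor result below is read by 2 probes of Thra, and 1 of them lies in the part of the transcript that encodes the ligand-binding domain. Its 60 bases are printed together with those of the coding probes for Pgr and Thrb, the receptors that gave little or no signal. All 3 come from the array design, 5′ to 3′ along the transcript, with mm7 positions from the scanner output.
Thra, chr11:98873367-98873426, plus strand: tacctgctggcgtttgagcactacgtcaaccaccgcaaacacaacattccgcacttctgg
Thrb, chr14:15796478-15796537, plus strand: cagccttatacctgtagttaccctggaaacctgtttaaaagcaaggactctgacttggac
Pgr, chr9:8987004-8987063, plus strand: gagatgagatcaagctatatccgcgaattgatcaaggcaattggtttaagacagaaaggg
The other Thra probe starts at position 98874081 of the same chromosome, downstream of the first.

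**Figure D1:**
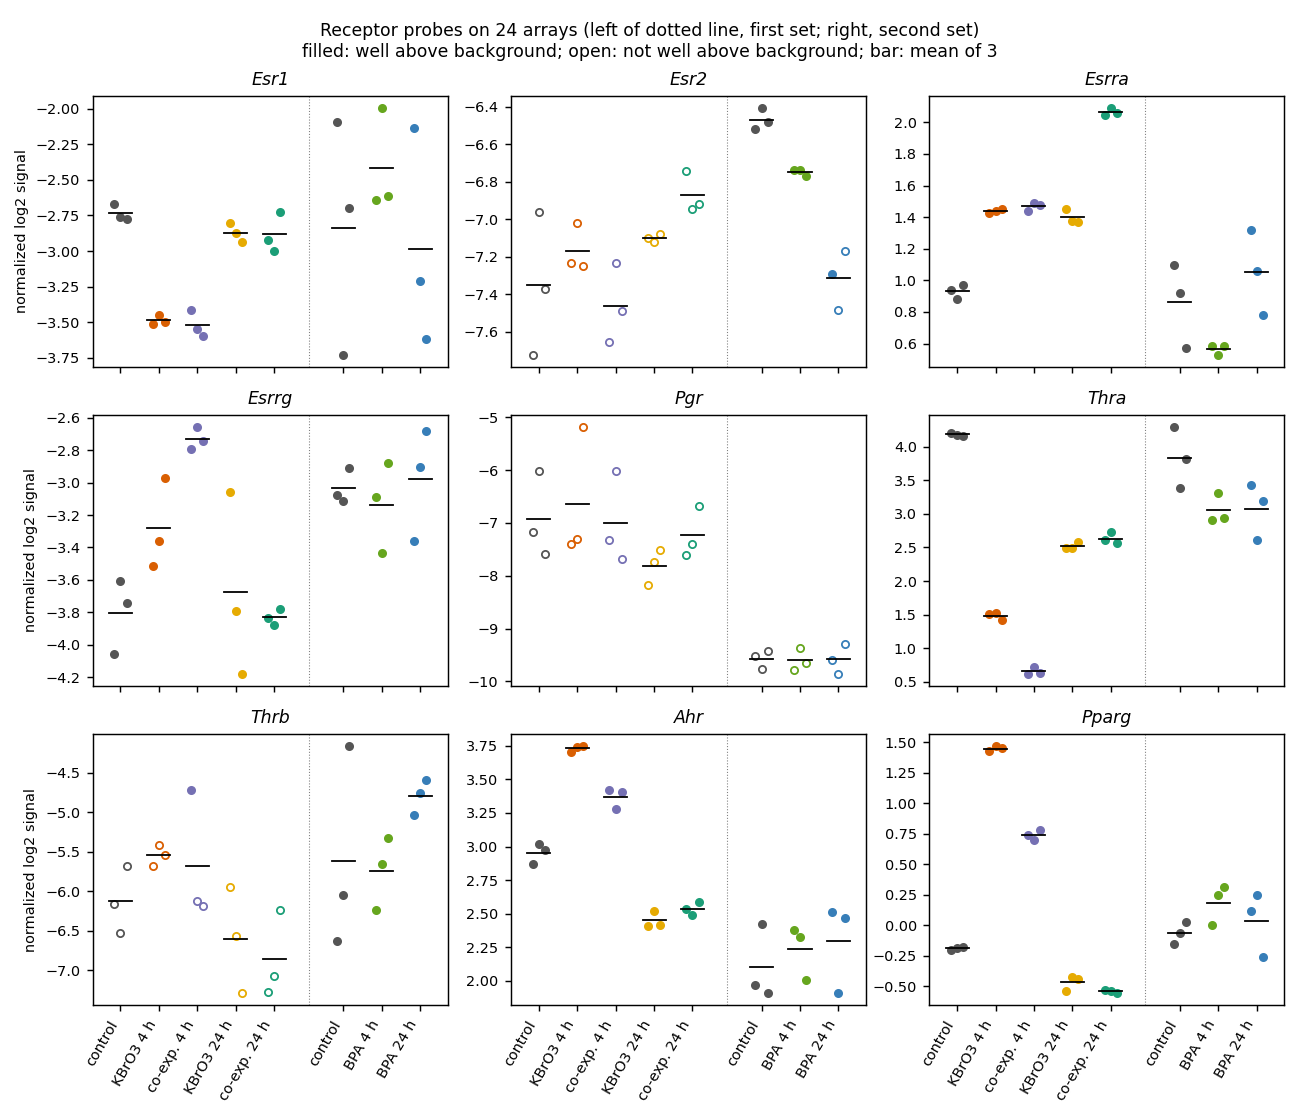
Normalized log2 signal (log2 of the processed signal minus the 75th percentile of the array) of the representing probe of each receptor on each array, with 3 arrays per group and a bar at their mean. Filled points were well above background and open points were not, and the levels of different probes are not comparable. At 4 hr Thra falls from 4.18 in the first controls to 1.48 with KBrO3 and 0.66 with co-exposure, and all Pgr points are open.

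In all, 6 genes, namely Esr1, Esrra, Esrrg, Thra, Ahr and Pparg, had a probe well above background in the first set, and each of the 6 had one on all 15 arrays. Esr2, Pgr and Thrb had none on every array of any first-set group, and were not tested there. In the second set 8 genes were tested, all but Pgr. The 2 Pgr probes were well above background on 0 of 24 arrays. Esr2, the estrogen receptor β gene, was well above background on 0 of 15 arrays of the first set and 7 of 9 of the second. Of the 4 Thrb probes, 1 was well above background on 1 of 15 and 9 of 9 arrays, 2 on 0 of 15 and 3 of 9, and 1 on none. The probe of Thrb printed above is among those with 3 of 9. The call came from a different software version in each set, so these counts cannot be compared between the sets. A processed signal of 7.73 was called well above background for Esr2 in the second set, while 28.72 was not for an Esrrg probe in the first.

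At 4 hr after KBrO3 alone, 5 of the 6 receptors tested passed (limma, Benjamini-Hochberg adjusted p below 0.05 over 27309 probes), with 3 higher and 2 lower than control. The background was high, since 72.1% of all probes tested passed, 36.3% higher and 35.8% lower, so a count of 5 is not a result about these receptors. After co-exposure at 4 hr all 6 receptors tested passed, 4 higher and 2 lower, against 78.6% of probes, 41.6% higher and 37% lower. At 24 hr, 4 receptors passed after KBrO3 (1 higher, 3 lower, against 66.2% of probes, 32.1% higher and 34% lower) and 4 after co-exposure (1 higher, 3 lower, against 69.9%, 32.9% higher and 37% lower). The median log2 fold change of the 6 receptors was 0.51, 0.48, −0.21 and −0.25 in these comparisons, beside 0.06, 0.08, −0.02 and −0.07 over all probes tested. The sizes and the time course of each receptor carry more than the counts.

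Thra, which encodes the thyroid hormone receptor that predominates in heart, bone and brain, fell furthest among the representing probes. Its representing probe read 4.2, 4.18 and 4.16 on the control arrays, 1.5, 1.52 and 1.42 after KBrO3 at 4 hr and 0.62, 0.72 and 0.63 after co-exposure at 4 hr. At 24 hr it read 2.5, 2.49 and 2.58 after KBrO3 and 2.60, 2.73 and 2.56 after co-exposure. No treated group overlapped the controls, and the 4 hr groups lay below the 24 hr groups. The log2 fold change was −2.70 ± 0.052 (SE) after KBrO3 at 4 hr, a 6.49-fold lower signal (limma adjusted p = 6.76e-13), and −3.52 ± 0.052 after co-exposure, an 11.5-fold lower signal (adjusted p = 7.03e-14). At 24 hr the values were −1.66 (adjusted p = 8.67e-11) and −1.55 (adjusted p = 9.22e-11). Within the slide that held 3 KBrO3 4 hr arrays and 1 control, the difference was −2.68 for Thra. On the same slide it was 1.62 for Pparg, 0.76 for Ahr, 0.47 for Esrra, −0.71 for Esr1 and 0.46 for Esrrg.

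The probe in the coding part of Thra also fell, but by less. It read 1.46, 1.40 and 1.61 on the control arrays, 0.56, 0.54 and 0.58 after KBrO3 at 4 hr and −0.06, 0.07 and −0.17 after co-exposure. Its log2 fold changes were −0.93 (limma adjusted p = 9.41e-07) and −1.55 (adjusted p = 6.31e-09) at 4 hr, and −1.24 (adjusted p = 1.16e-07) and −1.16 (adjusted p = 1.67e-07) at 24 hr. The difference between both probes on the same array, in which the array's scaling cancels, went from −2.69 ± 0.12 (SD, n = 3) in the controls to −0.92 ± 0.070 after KBrO3 at 4 hr (exact permutation p = 0.10, two-sided, the smallest that 3 against 3 arrays allow). It came to −0.71 ± 0.078 after co-exposure at 4 hr and −2.27 ± 0.021 and −2.30 ± 0.13 at 24 hr. The downstream probe therefore fell by a further 1.77 at 4 hr and by a further 0.42 at 24 hr after KBrO3, beyond the fall of the coding probe. Thra neighbours Nr1d1, the REV-ERBα clock repressor, whose transcript runs on the opposite strand. The representing Nr1d1 probe changed by 0.19 at 4 hr (limma adjusted p = 0.094) and by 0.40 at 24 hr (adjusted p = 0.0024) after KBrO3, and by 0.24 (adjusted p = 0.034) and 0.41 (adjusted p = 0.0019) after co-exposure. A pair of dimmer Nr1d1 probes, both well above background on all 15 arrays, gave larger differences after co-exposure at 4 hr. The first read −4.43, −4.34 and −3.96 on the control arrays and −2.23, −2.28 and −2.27 after co-exposure at 4 hr, and the second −4.15, −3.72 and −3.99 and then −2.79, −2.86 and −2.85. The co-exposed arrays lay above the controls for both. The KBrO3 24 hr array on the same slide as those co-exposed arrays read −2.39 and −2.90, and the pair on another slide −4.22 and −4.15 for the first and −3.76 and −3.85 for the second. These differences were not tested.

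**Figure D2:**
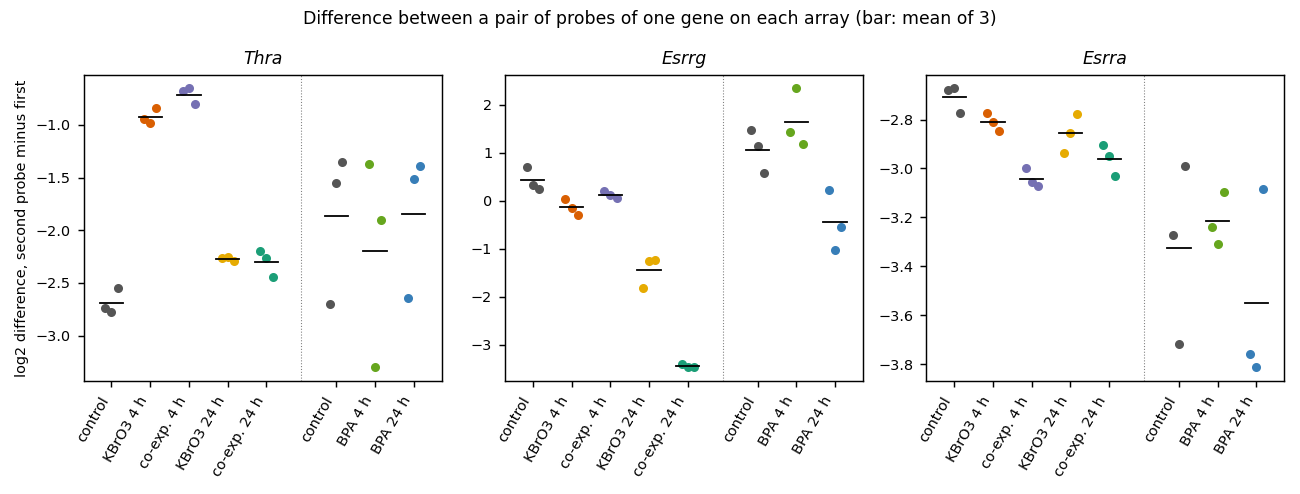
Difference in log2 signal between a pair of probes of Thra, Esrrg and Esrra on each array, the probe with the lower mean signal minus the representing one, with a bar at the mean of 3 arrays. For Thra the difference rises from −2.69 in the first controls to −0.71 after co-exposure at 4 hr, and for Esrrg it goes from 0.44 to −1.44 after KBrO3 at 24 hr. The Esrrg points for co-exposure at 24 hr, and 1 of those for KBrO3 at 24 hr, rest on a second probe that was not well above background and are not measured differences.

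Pparg, the master regulator of adipocyte differentiation, was higher at 4 hr and lower at 24 hr. It read −0.20, −0.19 and −0.17 on the control arrays, 1.43, 1.47 and 1.45 after KBrO3 and 0.74, 0.70 and 0.78 after co-exposure at 4 hr. At 24 hr it read −0.54, −0.42 and −0.44 after KBrO3 and −0.53, −0.54 and −0.56 after co-exposure. Each group stood apart from the controls, above them at 4 hr and below them at 24 hr. The signal rose 3.11-fold after KBrO3 (log2 1.64 ± 0.038 SE, limma adjusted p = 3.00e-12) and 1.91-fold after co-exposure at 4 hr (log2 0.93, adjusted p = 2.74e-10). The falls at 24 hr were −0.28 (adjusted p = 3.72e-05) and −0.35 (adjusted p = 3.99e-06) on the log2 scale, and both were lost when arrays were scaled to their median, with −0.13 (adjusted p = 0.22) and −0.03 (adjusted p = 0.74).

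Ahr had the same order in time. It read 2.87, 3.02 and 2.97 on the control arrays, 3.70, 3.74 and 3.75 after KBrO3 and 3.42, 3.28 and 3.41 after co-exposure at 4 hr. At 24 hr it read 2.41, 2.52 and 2.42 after KBrO3 and 2.54, 2.49 and 2.58 after co-exposure. All 4 treated groups were clear of the controls, the 4 hr groups above and the 24 hr groups below. The rise at 4 hr was 0.78 ± 0.053 (SE) on the log2 scale after KBrO3 (limma adjusted p = 4.25e-08) and 0.42 after co-exposure (adjusted p = 1.37e-05). The 24 hr values were −0.50 (adjusted p = 4.00e-06) and −0.42 (adjusted p = 1.80e-05). The fall after co-exposure was lost with median scaling (−0.10, adjusted p = 0.34), and both were lost with normexp background correction (−0.18, adjusted p = 0.24, and −0.12, adjusted p = 0.44). Normexp also moved the median of all probes tested, to −0.516 and −0.518 in these comparisons and to −0.455 and −0.443 at 4 hr. The normexp values given below against the first controls carry that shift too.

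Esrra, which encodes estrogen-related receptor α, was higher than control after every first-set treatment. It read 0.94, 0.88 and 0.97 on the control arrays, 1.42, 1.44 and 1.45 after KBrO3 and 1.44, 1.49 and 1.48 after co-exposure at 4 hr. At 24 hr it read 1.45, 1.37 and 1.37 after KBrO3 and 2.05, 2.09 and 2.06 after co-exposure. The co-exposed 24 hr arrays were the highest of the 15 and lay apart from all others. The log2 fold changes were 0.51 (limma adjusted p = 8.72e-08), 0.54 (adjusted p = 4.29e-08) and 0.47 (adjusted p = 3.37e-07) for KBrO3 at 4 hr, co-exposure at 4 hr and KBrO3 at 24 hr. Co-exposure at 24 hr gave 1.14 ± 0.038 (SE), a 2.20-fold higher signal (adjusted p = 8.02e-11). The second Esrra probe rose by 0.41, 0.21, 0.32 and 0.88 in the same order and passed in all 4 comparisons.

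Esr1, the estrogen receptor α gene, was dim but measured, and passed as lower at 4 hr. It read −2.67, −2.76 and −2.77 on the control arrays, −3.51, −3.45 and −3.50 after KBrO3 and −3.41, −3.55 and −3.60 after co-exposure at 4 hr. At 24 hr it read −2.80, −2.88 and −2.93 after KBrO3 and −2.92, −3.00 and −2.72 after co-exposure. The 4 hr groups lay below the controls with no overlap, and the co-exposed 24 hr arrays overlapped them. The log2 fold change was −0.75 ± 0.072 (SE) after KBrO3 (limma adjusted p = 9.91e-07) and −0.78 after co-exposure (adjusted p = 5.93e-07) at 4 hr. The 24 hr values of −0.14 (adjusted p = 0.12; 95% interval −0.29 to 0.02) and −0.15 (adjusted p = 0.086; −0.30 to 0.01) did not pass. Both passed as lower with normexp (−0.96, adjusted p = 0.0155, and −0.88, adjusted p = 0.0223), and the co-exposure value passed without replicate 3 of that group (−0.23, adjusted p = 0.00641). With normexp the median of all probes tested was itself −0.516 and −0.518 in these 24 hr comparisons. A second Esr1 probe stayed below the well-above-background call on all 15 first-set arrays.

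The 2 probes of Esrrg, the estrogen-related receptor γ gene, gave different time courses. Their mm7 starts lie at 187737462 and 187740543 on chromosome 1. The representing probe, at the first of these, read −4.06, −3.61 and −3.75 on the control arrays, −3.51, −3.36 and −2.97 after KBrO3 and −2.79, −2.66 and −2.75 after co-exposure at 4 hr. At 24 hr it read −3.06, −3.79 and −4.18 after KBrO3 and −3.84, −3.88 and −3.78 after co-exposure. The co-exposed 4 hr arrays stood above all controls, and both 24 hr groups overlapped the controls. At 24 hr Esrrg passed as lower with normexp after KBrO3 (−1.04, adjusted p = 0.0438) and after co-exposure (−1.07, adjusted p = 0.0385), against 0.13 and −0.03 as reported. It also passed as lower with the mean of its probes, after KBrO3 (−0.81, adjusted p = 0.00101) and after co-exposure. The second of these probes was not well above background after co-exposure, nor on every KBrO3 array. The representing probe passed after co-exposure at 4 hr (log2 fold change 1.07 ± 0.23 SE, limma adjusted p = 0.0011), a call lost with slide as a random block (0.70, adjusted p = 0.096) and reversed in sign with normexp (−0.26, adjusted p = 0.59). It did not pass after KBrO3 at 4 hr (0.52, adjusted p = 0.062), although its groups did not overlap, and this call turned on the setting, since it passed in 6 of 20 alternatives, with adjusted p from 0.0231 to 0.234 over all of them, and turned in sign with normexp (−0.582). Of the KBrO3 24 hr arrays, the one at −3.06 shared its slide with the 3 co-exposed 4 hr arrays, and the pair on another slide read −3.79 and −4.18. The part of the slide in this probe's values was not tested beyond the random block.

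The second Esrrg probe read −3.34, −3.27 and −3.49 on the control arrays and −2.58, −2.54 and −2.68 after co-exposure at 4 hr. After KBrO3 it read −3.48, −3.52 and −3.26 at 4 hr and −4.88, −5.04 and −5.42 at 24 hr. After co-exposure at 24 hr it read −7.24, −7.35 and −7.25, and 0 of the 3 arrays were well above background. It rose after co-exposure at 4 hr (0.77, limma adjusted p = 7.73e-05) and fell after KBrO3 at 24 hr (−1.75, adjusted p = 7.94e-08), where 2 of 3 arrays measured it. Against the lowest signal counted as well above background, its level after co-exposure at 24 hr was at least 3.70-fold lower than in the controls (adjusted p = 4.00e-11). The difference between both probes went from 0.44 ± 0.25 (SD, n = 3) in the controls to −1.44 ± 0.34 with KBrO3 at 24 hr (exact permutation p = 0.10, the smallest possible), where 1 of the 3 arrays was not well above background for the second probe. No difference between the probes is given for co-exposure at 24 hr, since the second probe has only the bound above there.

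**Figure D3:**
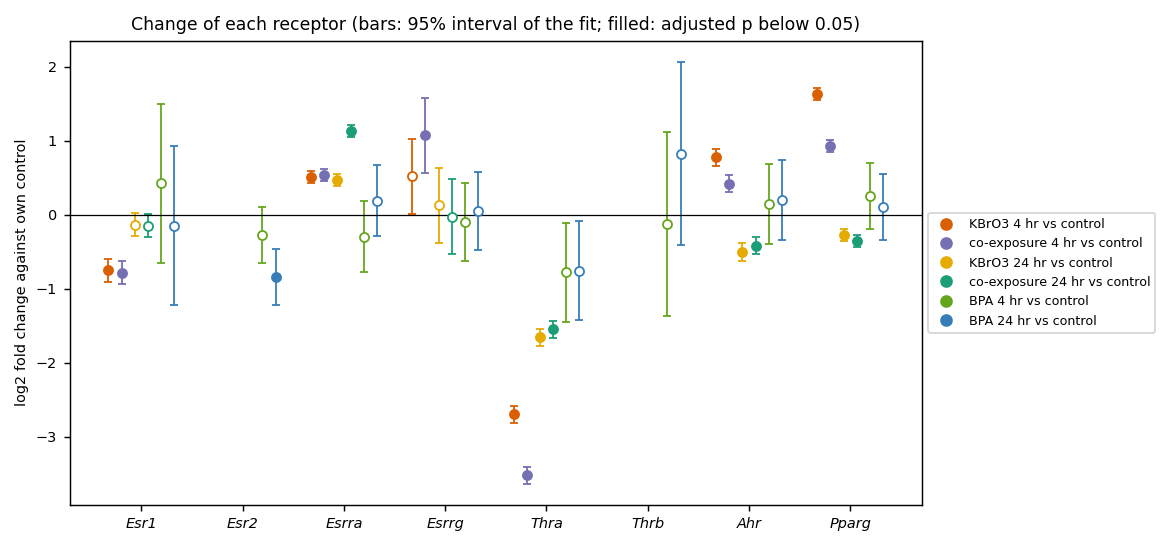
Log2 fold change against the controls of the same set for the representing probe of 8 receptors, with 95% intervals of the limma fit and filled points where the adjusted p is below 0.05. Points are absent where a receptor was not tested. Thra lies at −2.70 and −3.52 at 4 hr, and the intervals of BPA alone are wider than those of the first set.

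BPA given alone changed little that these arrays could resolve. At 4 hr, 0 of 8 receptors tested passed (limma, adjusted p), 1 had an unadjusted p below 0.05, and 4.24% of 31808 probes passed, 2.83% higher and 1.41% lower. The share of all probes with an unadjusted p below 0.05 is not given, so that count of 1 has no background beside it. At 24 hr, 1 of 8 passed, which was lower, against 3.41% of probes, 1.39% higher and 2.02% lower. With slide as a fixed block 0 probes of the array passed at either time, and with normexp 16 passed at 4 hr and 0 at 24 hr, so every call after BPA alone named here is lost with that block, and every 24 hr call with normexp too. The receptor that passed was Esr2, at −6.52, −6.41 and −6.48 in the controls, −6.74, −6.73 and −6.77 after BPA at 4 hr and −7.29, −7.48 and −7.17 at 24 hr. The 24 hr arrays lay below the controls, but only 1 of the 3 was well above background. Esr2 was tested because its control and 4 hr arrays were all well above background, so the fitted fall at 24 hr is not an exact measure. The log2 fold change was −0.85 ± 0.17 (SE, limma adjusted p = 0.031), and the adjusted p lay between 0.022 and 0.71 over the alternative settings, with the call lost in 14 of 19 of them. With slide as a fixed block the value itself was −0.945 (adjusted p = 0.113). On each of the 2 slides that held 1 control and 1 BPA 24 hr array, Esr2 differed by −0.89 and −1.0. The BPA array behind the −1.0 was not well above background, so that value is not an exact difference.

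Thra had the lowest unadjusted p at 4 hr (0.0265) and did not pass after adjustment. It read 4.29, 3.38 and 3.82 on the second-set controls, 2.91, 3.31 and 2.93 after BPA at 4 hr and 3.43, 2.61 and 3.19 at 24 hr. The 4 hr arrays lay below the controls and the 24 hr arrays overlapped them. The log2 fold changes were −0.78 (95% interval −1.45 to −0.11, limma adjusted p = 0.19) and −0.76 (−1.42 to −0.09, adjusted p = 0.22). Within slides Thra differed by −1.37 at 4 hr (2 arrays against 1) and by 0.05 and −1.21 at 24 hr (1 against 1 on each of 2 slides). The coding probe gave −1.11 (adjusted p = 0.20) and −0.74 (adjusted p = 0.40). Esr1 illustrates the spread in this set, since its controls read −2.09, −3.73 and −2.70 and its interval at 4 hr ran from −0.65 to 1.5. For Ahr and Pparg, the values were 0.14 and 0.25 at 4 hr and 0.20 and 0.10 at 24 hr, with adjusted p from 0.54 to 0.84. The intervals reached 0.74 for Ahr and 0.70 for Pparg, so a change of that size could not be resolved by these arrays.

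The second Esrrg probe was lower after BPA alone at 24 hr, with a call that was lost with slide as a fixed block and with normexp. It read −1.59, −1.98 and −2.33 on the second-set controls and −3.14, −3.93 and −3.22 at 24 hr, with no overlap. The log2 fold change was −1.46 ± 0.30 (SE, limma adjusted p = 0.032), while the representing probe gave 0.05 (adjusted p = 0.94). Within the slides that held both a control and a BPA 24 hr array, the second probe differed by −1.16 and −1.59. Thrb read −6.63, −6.05 and −4.16 on the controls and −5.03, −4.75 and −4.59 after BPA at 24 hr, and its log2 fold change of 0.83 did not pass (adjusted p = 0.47; 95% interval −0.41 to 2.07).

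By their representing probes, 3 of 6 receptors differed between co-exposure and KBrO3 alone at 4 hr, all lower with BPA, where 57.8% of all probes passed, 28.6% lower than KBrO3 alone and 29.2% higher. Thra was −0.82 on the log2 scale (1.77-fold lower, limma adjusted p = 2.23e-07), Pparg was −0.70 (1.63-fold lower, adjusted p = 7.06e-08) and Ahr −0.36 (adjusted p = 1.40e-04). The 3 co-exposed arrays lay below the 3 KBrO3 arrays for each of these genes. Pparg and Ahr were therefore still above control but less so, whereas Thra was further from control. Esr1 and Esrra differed by −0.03 (95% interval −0.19 to 0.13) and 0.03 (−0.05 to 0.11), although Esr1 passed with quantile normalization (−0.176, adjusted p = 0.0374), and the representing probe of Esrrg by 0.55 without passing (adjusted p = 0.0605), although it passed in 5 of 19 alternative settings. The other probes of both genes did pass, with the second Esrrg probe higher by 0.82 (adjusted p = 1.25e-04) and the second Esrra probe lower by 0.20 (adjusted p = 0.00142). With normexp the Ahr value was −0.35 and did not pass (adjusted p = 0.124). The groups stood on different slides, and slide and treatment cannot be told apart at this time.

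At 24 hr 1 of 6 representing probes passed, that of Esrra, higher by 0.67 ± 0.038 (SE) with BPA added (1.59-fold, limma adjusted p = 5.45e-08), against 46.7% of probes, 23.1% higher and 23.7% lower. On the slide that held 2 arrays of each group the difference was 0.70. The second Esrra probe differed by 0.56 (adjusted p = 4.78e-07). The Esrrg probe at the second position was not well above background after co-exposure, and no difference is given for it. The remaining differences in representing probes were between −0.15 and 0.11. With median scaling Thra (0.28, adjusted p = 0.029) and Ahr (0.255, adjusted p = 0.0337) also passed, as did Pparg with slide as a random block (−0.0893, adjusted p = 0.031).

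The difference between co-exposure and KBrO3 itself changed from 4 to 24 hr for 4 of the 6 receptors (54.3% of probes passed, 25.5% higher and 28.7% lower). The change was 0.93 ± 0.073 (SE) for Thra (limma adjusted p = 1.91e-06), 0.64 for Esrra (adjusted p = 2.90e-06), 0.63 for Pparg (adjusted p = 3.42e-06) and 0.45 for Ahr (adjusted p = 4.55e-04). All 4 are increases, and those of Thra, Pparg and Ahr go with values that passed as lower with BPA at 4 hr and did not pass at 24 hr. For Esr1 this change passed with quantile normalization (0.28, adjusted p = 0.0247) and with median scaling (0.331, adjusted p = 0.0324).

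**Figure D4:**
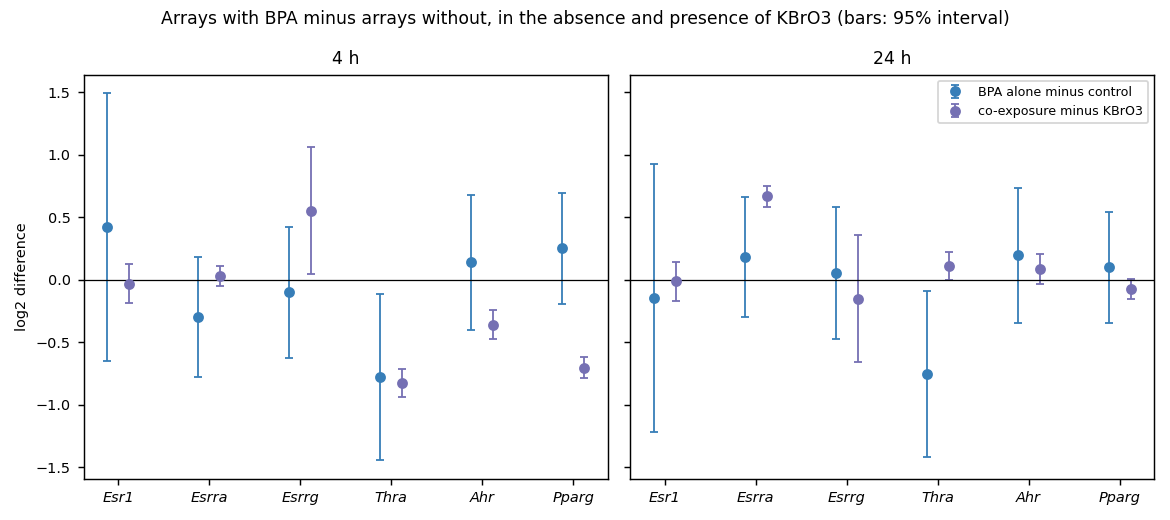
Log2 difference between arrays with and without BPA for 6 receptors, once without KBrO3 (second set) and once with KBrO3 (first set), at 4 and 24 hr, with 95% intervals. At 4 hr Pparg lies at 0.25 without and −0.70 with KBrO3, while Thra lies at −0.78 and −0.82.

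A fit over all 24 arrays tested whether BPA alone and BPA added to KBrO3 gave different changes. At 4 hr 1 of 6 receptors passed, against 8.49% of 27011 probes (5.1% higher, 3.39% lower). It was Pparg, for which the change after BPA alone was higher by 0.95 ± 0.15 (SE, limma adjusted p = 3.93e-04). For Thra the difference was 0.05 (95% interval −0.45 to 0.55, adjusted p = 0.93). At 24 hr 0 of 6 passed against 2.42% of probes (1.36% higher, 1.07% lower), with −0.87 for Thra (adjusted p = 0.066) and −0.48 for Esrra (adjusted p = 0.14). Of the 6, 2 had an unadjusted p below 0.05, for which the share of all probes is not given. The comparison runs across sets that were extracted with different software versions. At 4 hr its part with KBrO3 sets groups on different slides against each other, where slide and treatment cannot be told apart.

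Among the partners and chaperones of these receptors, 13 genes, 6 rose and 5 fell after KBrO3 at 4 hr, and 6 rose and 4 fell after co-exposure, where 72.1% and 78.6% of all probes passed. Ahrr, the AHR repressor, had the largest change, a 10.5-fold lower signal after co-exposure at 4 hr (log2 −3.39 ± 0.057 SE, limma adjusted p = 1.73e-13). Arnt, which dimerizes with AHR, was 2.68-fold lower after KBrO3 at 4 hr (adjusted p = 6.03e-06). Arnt2 was not well above background after KBrO3 at 24 hr and at least 1.68-fold lower than control (adjusted p = 2.85e-09). Rxra, the retinoid X receptor that pairs with Thra and Pparg, gave −0.65 and −1.19 on the log2 scale after KBrO3 and co-exposure at 4 hr and −1.25 and −1.0 at 24 hr, and passed in all 4 comparisons. Rxra was singled out after its values were seen. After BPA alone, Ahrr (−1.29, adjusted p = 0.0105) and Gper1, the membrane estrogen receptor (−1.19, adjusted p = 0.020), passed at 4 hr and Gper1 (−1.33, adjusted p = 0.0149) at 24 hr, out of 13 tested, against 4.24% and 3.41% of all probes. These calls were lost with slide as a fixed block.

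The AHR target list held genes that rose and genes that fell. Of its 8 genes, 4 were tested in the first set, and 2 rose and 2 fell after KBrO3 at 4 hr, against 72.1% of all probes that passed. Ahrr read 1.98 ± 0.07 (SD, n = 3) in the controls, −0.46 ± 0.01 with KBrO3 and −1.41 ± 0.09 with co-exposure at 4 hr, and 1.06 ± 0.06 and 0.52 ± 0.07 at 24 hr. Tiparp, a PARP enzyme that restrains AHR, went the other way, from 2.23 ± 0.01 to 4.61 ± 0.05 and 4.93 ± 0.04 at 4 hr, and its rise after co-exposure was 6.50-fold (limma adjusted p = 6.00e-13). Nqo1, a quinone reductase, rose by 1.05 and 1.38 on the log2 scale and Cyp1b1, a P450 that oxidizes estrogens, fell by 0.67 and 0.59. Cyp1a1, the classic AHR target, was not well above background on every array of any first-set group. After BPA alone at 24 hr Aldh3a1 was 3.85-fold lower (adjusted p = 0.034), with 2 of 3 treated arrays well above background and the call lost in 12 of 19 alternative settings. Its log2 fold change was −1.945, and −2.31 with slide as a fixed block (adjusted p = 0.0831). Cyp1a1 gave −0.70 at that time without passing.

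**Figure D5:**
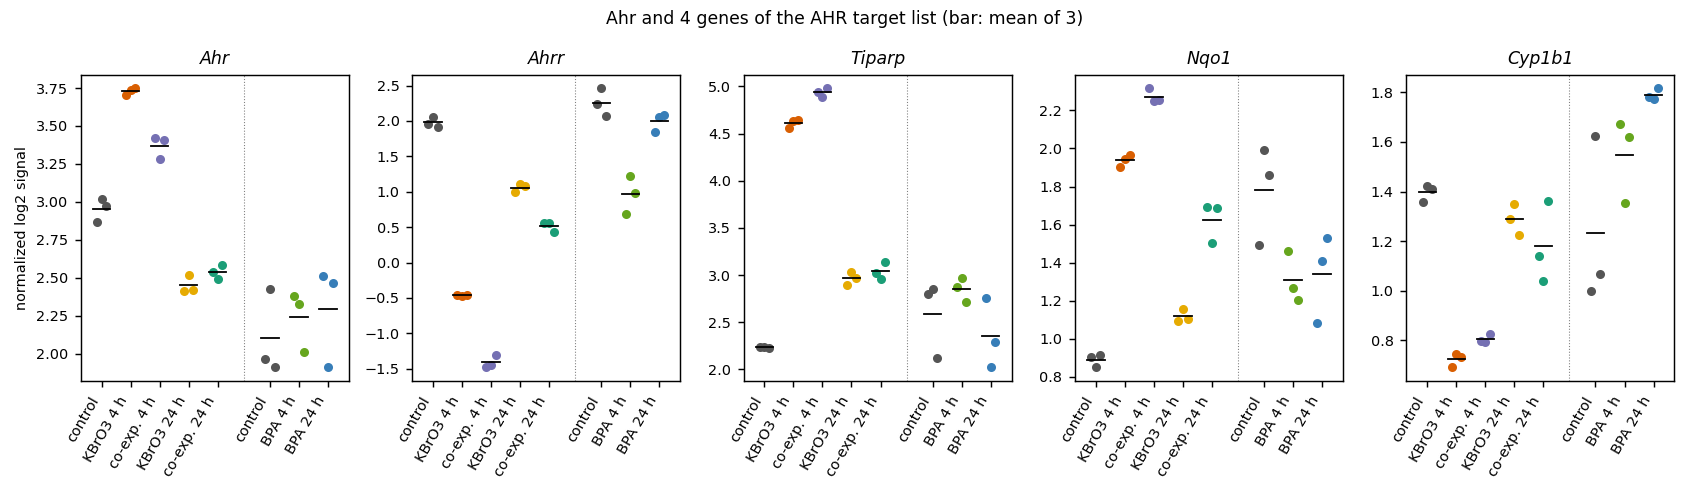
Normalized log2 signal of Ahr and of 4 genes of the AHR target list on each array, with a bar at the mean of 3 arrays. At 4 hr Ahrr falls from 1.98 to −1.41 and Tiparp rises from 2.23 to 4.93 after co-exposure, in cells in which Ahr rises from 2.95 to 3.37.

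Both of these genes hold the core of the AHR binding site near their starts, and the stretches are shown because they moved in opposite directions. Sequences are from RefSeq (GRCm38.p6), 5′ to 3′ along the gene, and the capitals mark GCGTG or its complement on the other strand.
Ahrr, chr13:74292349-74292443, minus strand: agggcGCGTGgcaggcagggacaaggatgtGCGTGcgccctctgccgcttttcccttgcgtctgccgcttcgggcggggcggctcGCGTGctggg
Tiparp, chr3:65528265-65528294, plus strand: ctccgtccggagCACGCgcacgggaggcgg
Counted from the start, the Ahrr stretch holds the core 3 times, from bases −107, −82 and −27, and the Tiparp stretch holds it once, from base −170. Of 32851 promoter windows of 250 bases before to 50 after a start, 32.4% hold GCGTG on either strand and 5.07% the longer TNGCGTG, which contains it and which is found in Ahrr but not in Tiparp. Of the 9 receptors, 7 are in this table, and 5 of them (Esr1, Esrra, Esrrg, Thrb and Pparg) hold GCGTG in at least 1 window, against 35.2% of genes. The element TNAAGGTCA, bound by estrogen-related receptors, was in no window of these 7 genes and in 1.28% of all windows. These are matches of letters and not measured sites.

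Thyroid hormone receptor targets were led by Dio3, the deiodinase that inactivates thyroid hormone. Dio3 fell from 3.03 ± 0.09 (SD, n = 3) in the controls to 1.64 ± 0.01 with KBrO3 and −0.59 ± 0.01 with co-exposure at 4 hr, and to −1.98 ± 0.08 and −4.02 ± 0.20 at 24 hr. The 24 hr co-exposure value was 132-fold lower than control (limma adjusted p = 2.36e-14), and Dio3 was higher after BPA alone at 4 hr (log2 1.84, adjusted p = 0.0169), a call lost with slide as a fixed block. Klf9, a transcription factor, rose 3.23-fold after KBrO3 at 4 hr (adjusted p = 3.60e-10), and Dio1, an activating deiodinase, gave a 2.10-fold higher signal in co-exposed cells at 4 hr (adjusted p = 0.036), with 2 of 3 controls well above background and the call lost in 8 of 18 alternative settings. Dio1 read −4.23 on the KBrO3 24 hr array hybridized beside the 3 co-exposed 4 hr arrays, and −5.77 and −6.09 on the pair on another slide. Of the 5 tested genes, 3 rose and 1 fell at 4 hr after each treatment, and at 24 hr 1 rose and 2 fell after KBrO3 and 1 rose and 3 fell after co-exposure. Of all probes, 72.1% and 78.6% passed at 4 hr and 66.2% and 69.9% at 24 hr, so these counts are not a result about the targets.

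Of 12 PPARG targets, 5 were tested in the first set. At 4 hr 2 rose and 1 fell after KBrO3 and 2 rose and 2 fell after co-exposure, and at 24 hr 0 rose and 4 fell after each. The shares of all probes that passed were the same as for the thyroid list, and at 24 hr 34% and 37% of all probes were lower. The median log2 fold change was 0.14 and −0.07 at 4 hr and −0.95 and −1.27 at 24 hr, beside 0.06, 0.08, −0.02 and −0.07 over all probes. Lpl, lipoprotein lipase, was 5.58-fold lower after co-exposure at 24 hr (limma adjusted p = 8.36e-08). Angptl4, an inhibitor of Lpl, was 5.06-fold lower in co-exposed cells at 4 hr (adjusted p = 5.28e-11) but higher after BPA alone at 4 hr (log2 2.09, adjusted p = 0.0491, the single one of 10 tested targets to pass, beside 4.24% of all probes, and lost with slide as a fixed block). Cidec, a lipid droplet protein, in co-exposed cells at 4 hr was at least 2.60-fold above the controls (adjusted p = 0.015), where it was not well above background, a call lost with slide as a random block (adjusted p = 0.492) and reversed in sign with normexp. On the KBrO3 24 hr array of the same slide Cidec read −4.54, and −6.80 and −6.91 on the pair on another slide. The summed level of the adipocyte markers, nearly all of it Fabp4, a fatty acid carrier, ran from 43.2 to 49.1 in the first controls. With KBrO3 it was 50.7 to 51.7 at 4 hr and 15.4 to 16.1 at 24 hr, with co-exposure 35.2 to 35.7 and 12.4 to 13.4, and Lep and Adipoq were not well above background on all arrays of any first-set group. The part of that change in these counts was not tested.

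Of 13 estrogen and progesterone receptor targets, 7 were tested in the first set, and 3 rose and 2 fell after KBrO3 at 4 hr, where 72.1% of all probes passed. Areg, an EGF-family growth factor, rose from −4.89 ± 0.30 (SD, n = 3; 2 of 3 arrays well above background) to 2.19 ± 0.03, a 135-fold higher signal (limma adjusted p = 1.78e-13). Tff1, a secreted trefoil peptide, was 5.90-fold higher in co-exposed cells at 4 hr (adjusted p = 1.09e-04), but not with normexp (log2 0.26, adjusted p = 0.675). It read −2.16, −2.22 and −2.21 there and −5.27, −4.43 and −4.57 on the control arrays, but also −2.36 on the KBrO3 24 hr array of the same slide, against −4.02 and −4.46 on the pair on another slide. It still passed with slide as a random block. Igfbp4, an IGF carrier, was 5.38-fold lower after KBrO3 at 24 hr (adjusted p = 1.79e-09). After BPA alone 0 of 11 tested targets passed at either time, beside 4.24% and 3.41% of all probes. Among 9 ERR targets, all tested, 2 rose and 6 fell after co-exposure at 4 hr, and 3 rose and 6 fell at 24 hr, against 78.6% and 69.9% of all probes that passed, 37% lower at each time. Cox6a2, a cytochrome oxidase subunit, was 5.44-fold higher in co-exposed cells at 24 hr (adjusted p = 4.97e-11). After BPA alone 1 of the 9 passed at 4 hr, Acadm (−0.80, adjusted p = 0.0394), and 1 at 24 hr, Cox6a2 (log2 2.22, adjusted p = 0.0104), both lost with slide as a fixed block, beside the same shares of all probes. Cox6a2 read −1.92, −1.99 and −2.24 on the second-set controls and 0.73, 0.40 and −0.63 after BPA alone at 24 hr, with no overlap. Pdk4, a brake on pyruvate oxidation, and Acadm, a fatty acid β-oxidation enzyme, were 4.27-fold (adjusted p = 1.02e-10) and 4.04-fold lower (adjusted p = 5.33e-12) after co-exposure at 4 hr.

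Among 41 other nuclear receptors, 29 were tested in the first set, with 7 higher and 8 lower after KBrO3 at 4 hr and 12 higher and 13 lower after co-exposure, against 72.1% and 78.6% of all probes that passed. Nr4a1, an immediate early orphan receptor, rose 18.5-fold after KBrO3 at 4 hr (limma adjusted p = 1.92e-15). Rorb, a retinoid-related orphan receptor, rose 4.54-fold (adjusted p = 3.44e-09), with 2 of 3 controls well above background and the sign reversed with normexp. Rara, a retinoic acid receptor, was at least 2.02-fold lower in co-exposed cells at 4 hr (adjusted p = 2.22e-05) and not well above background there. Of 18 coregulators, 8 rose and 7 fell after KBrO3 at 4 hr, near the share of all probes. Ppargc1b, the PGC-1β partner of estrogen-related receptors, rose 2.65-fold (adjusted p = 6.34e-08), although not with normexp (log2 −0.02). Ncoa2, a steroid receptor coactivator, was 2.68-fold lower in co-exposed cells at 4 hr (adjusted p = 1.51e-07) and Prdm16, a coregulator of brown fat genes, 4.54-fold lower after KBrO3 at 24 hr (adjusted p = 2.59e-05). After BPA alone 0 of 18 coregulators passed at either time, and 1 of 33 other nuclear receptors did at each, against 4.24% and 3.41% of all probes.

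The genes whose pattern over the 15 first-set arrays was most like that of each receptor were taken by Pearson's r among 19161 probes well above background on all 15. They were Plekha4 (r = 0.999), Cers4 and Ppp1r3d (0.995 each) for Thra, and Msx2 (0.997), Mapre1 (0.996) and Krt13 (0.994) for Pparg. For Esrra they were Eda2r (0.995), Homer3 (0.981) and Rps27l (0.979), and for Ahr Ddx5, Serpinb1a (0.986 each) and Junb (0.985). For Esr1 they were Arl10 (0.988) and Agbl3 (0.986), and for Esrrg Nr3c2 (0.974), Faah (0.966) and Rrp7a (0.965). With 5 groups of 3 arrays, such r values rest mainly on 5 group means, and the arrays share slides and scaling.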

How the data were processed

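RNA was labelled with Cy3 and hybridized to 1-color whole-genome mouse arrays from Agilent. The authors deposited fluorescence intensity values per spot from Agilent Feature Extraction (12.0 in the submitters' processing notes, 9.5.3.1 and 12.0.0.7 in the headers of the first and second set), detrended and background-adjusted but not normalized between arrays. The deposited series table holds the same intensity values in 1080432 of 1080432 cells, within a relative tolerance of 1e-06.

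Here the processed signal was taken to log2, the 75th percentile of the array was subtracted, spots called outliers by the software were left out (46 of 1272 member values) and spots of 1 probe were averaged. No member spot was saturated. A probe entered the test of a set if all 3 arrays of 1 or more of its groups were well above background. Testing used limma 3.58.1 in R 4.3.3 (lmFit, eBayes, all arrays of the set, two-sided), with Benjamini-Hochberg adjustment over all probes of a comparison, which were 27309 for the first set's comparisons and 31808 for the second's. A stricter call, used as an alternative, took Bonferroni adjustment at 0.01 together with 1.5-fold. BPA alone and BPA added to KBrO3 were compared over 24 arrays with a weight per set. A bound, given as at least N-fold, replaces a dim signal, array by array, with the lowest one that was well above background, unless its own was higher.

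Named genes were all members with all their probes, the 3 genes of each pathway list with the largest change that passed against control, and the 3 genes most like each receptor over the 15 arrays, of which 1 is not reported here. Outside this rule, Nqo1, Cyp1b1, Cyp1a1, Rxra, Gper1, Nr1d1 and the marker genes were chosen for mention with their values known. The members and lists were chosen with earlier results of these data known. Of the lists, the muscle markers gave summed levels of 0.721 to 0.854 in the first controls, 0.249 to 0.325 and 0.0897 to 0.199 after KBrO3 and co-exposure at 24 hr, and 0.699 to 0.84 in the second controls against 0.374 to 0.457 after BPA at 24 hr. The neuron markers gave 0.272 to 0.342 in the first controls and 0.568 to 0.64 after co-exposure at 4 hr. Tables were read with Python 3.11.15 and pandas 2.3.3. Of 41174 probes, 32719 were matched to a gene of RefSeq GRCm38.p6. The same steps were tested on simulated data with known changes. Alternatives covered scaling, background correction, the dim-probe filter, the arrays fitted, error weights, slide and replicate number as blocks, probe choice, outlier spots and leaving out each array. For normexp (offset 50) the raw signal was the spot mean in the first set and the spot median in the second.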

Additional observations from a re-analysis of the deposited data

Results flagged for a closer look

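For 4 receptors the difference between co-exposure and KBrO3 alone was not the same at 4 and 24 hr, by a limma test of that change itself. Its size on the log2 scale was 0.64 for Esrra, 0.93 for Thra, 0.45 for Ahr and 0.63 for Pparg, in a comparison in which 54.3% of all probes passed. For Ahr the change no longer passed with normexp background correction.

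The response of Pparg to BPA at 4 hr differed between cells without and with KBrO3, by 0.95 on the log2 scale, and passed in the 24-array fit, as did 8.49% of the probes tested. The same limit of slides at 4 hr applies to the part of this difference with KBrO3. The groups hold 3 arrays each, too few for a test of a single outlying array within a group.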

How the results depend on the processing

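Of 1604 alternative values for 93 single values, 1507 kept their side of the threshold, 62 lost their call, 27 gained one and 8 changed sign with a call before or after. Among the 1507, 42 values with no call changed sign. Thra and Esrra against control in all 4 first-set comparisons, and Pparg, Ahr and Esr1 at 4 hr, kept their calls in each of 19 or 20 settings, leaving aside the stricter call. With normexp the sign reversed for Ppargc1b (−0.0244) and Rorb (−0.21) after KBrO3 at 4 hr, for Esrrg (−0.26), Cidec (−0.67) and Dio1 (−0.73) after co-exposure at 4 hr and for Esrrg (−1.04) after KBrO3 at 24 hr, and with the mean of the tested probes for Esrrg after KBrO3 at 24 hr (−0.81) and Esrra, co-exposure against KBrO3 at 4 hr (−0.0847). The cause was not tested. The count of receptors that passed after BPA at 24 hr went from 1 to 0 with quantile, median or normexp processing, outlier spots kept, no filter on dim probes, the filter on every array, only 6 arrays, error weights, slide as a fixed block or the stricter call. The stricter call gave 3 after co-exposure at 4 hr, 1 after KBrO3 at 24 hr and 2 after co-exposure at 24 hr, where median scaling also gave 2. Co-exposure against KBrO3 at 24 hr gave 3 with median scaling and 2 with slide as a fixed or random block or the mean of probes, and at 4 hr the mean of probes gave 5. The number for BPA alone against BPA added at 24 hr went from 0 to 1 with quantile normalization (Thra, −0.92, adjusted p = 0.0394). Leaving out single arrays gave 0 to 1 after BPA at 24 hr (0 without any control array or BPA 24 hr replicate 1 or 2) and 1 to 2 for co-exposure against KBrO3 at 24 hr (2 without KBrO3 24 hr replicate 1 or co-exposure 24 hr replicate 3).

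Same-numbered arrays did not deviate together on average, with a mean correlation of −0.029 (−0.21 to 0.11 over 30 pairs) in the first set and 0.0020 (−0.38 to 0.65 over 9 pairs) in the second. The pairs of the second set are too few and too spread to exclude a pairing by number there. With the replicate block the count after BPA at 24 hr was 0, and the other counts stayed within 1.5 times their value. With that block 677 of all probes passed after BPA at 4 hr and 529 at 24 hr. The median of all probes shifted by −0.14 to 0.32 with median scaling, by −0.53 to −0.39 against control with normexp in the 5 comparisons affected and by 0.12 with quantile normalization after co-exposure at 24 hr. The number of all probes that passed was 0 to 1442 after BPA at 4 hr (1349 as reported), 0 to 1329 at 24 hr (1084 as reported), and as low as 3342 (of 15789) and 3028 (of 12761) for co-exposure against KBrO3 at 4 and 24 hr and 2531 (of 14821) for its change in time. Where a probe was dim, the floor of the scanner limits the value to a bound.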
